A study of Mus musculus with 6 samples.

Results

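Genes that encode basement membrane components and the integrins that bind them were followed in whole mouse melanomas, in 3 tumors labelled NTC and 3 labelled Gli2CA. The set holds 35 genes of the 54532 in the expression table, named from knowledge of the matrix and found by matching each Ensembl identifier to its mouse symbol. It splits into 19 matrix genes, among them Egflam and the matrix receptor Dag1, and 16 integrin subunits. All 35 were found, and 33 had a mean of at least 0.5 FPKM (fragments per kilobase of transcript per 1000000 fragments) over the 6 libraries and were tested. The other 2, Lama3 and Lamc3, lay below that level.

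Both groups were grown from mouse melanoma cells of a BRAF-mutant line. Cells of both groups were cultured under puromycin at 1 ug/mL. One group carried a non-targeted control (NTC) and the other an activated mutant (Gli2CA) of Gli2, which encodes a Hedgehog transcription factor. Hosts were C57Bl/6 mice, which received 1000000 cells in 100 uL of saline mixed with Matrigel, itself a basement membrane extract. Whole tumors were taken at day 28, so host vessels, stroma and blood cells are measured together with the melanoma cells, and fewer cells of a type cannot be told apart from less RNA per cell. The sources used here do not give the age of the mice, whether the 3 samples of a group came from separate mice, or how the active Gli2 is driven. The p-values therefore reflect variation among these 6 samples, some of which may be technical.

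Basement membranes are sheets of extracellular matrix under epithelia and endothelia and around muscle, fat and nerve cells. Trimers of laminin alpha, beta and gamma chains polymerise on the cell surface, and nidogens and the proteoglycans perlecan and agrin join that network to collagen IV. Cells hold on to it through integrins, which pair 1 alpha with 1 beta subunit, and through dystroglycan. In tumors these proteins surround vessels and anchor tumor cells.

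The libraries held 16225486 to 22274096 fragments, computed back from the FPKM values, and correlations of log2 values were 0.94 to 0.975 within and 0.883 to 0.961 between groups. Gli2 itself was measured at 8.88, 11.1 and 7.96 FPKM across NTC replicates 1 to 3, against 3.22, 5.82 and 1.61 FPKM across Gli2CA replicates 1 to 3 (adjusted p = 0.0853). The libraries labelled Gli2CA were thus below all NTC libraries for the gene they are named for, and the groups are called by their labels here. The sources used here do not say whether the introduced Gli2 is counted under the mouse gene. Whether the labels are exchanged could not be settled from these values, and an exchange would turn every direction given here. Of 7 melanocyte markers, Sox10 (51.5 to 177 FPKM), Mitf and Pmel were measured above the filter, Tyr, Dct and Mlana lay below it, and Tyrp1 was listed at 0 in all 6 libraries. Of the 3 tested, 0 were called in limma, and their median log2 fold change was -0.58. At an unadjusted p under 0.05, 2 of them were lower, beside 14.7% of all tested genes. Skeletal muscle markers summed to 4.74, 5.46 and 1718 FPKM in NTC replicates 1 to 3 and 1112, 26.4 and 397 FPKM in Gli2CA replicates 1 to 3, so this RNA differed between libraries of the same group. Of the 7, 0 were called in limma and 0 had an unadjusted p under 0.05, and their median log2 fold change was 1.94.

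Matrix genes had negative estimates throughout in the tumors labelled Gli2CA, while those of integrin subunits had either sign. All 17 tested matrix genes had negative estimates, with a median log2 fold change of -1.02, and 12 of 16 integrin genes did, with a median of -0.52. Without NTC replicate 1 the integrin median was -0.22. Over all 15820 tested genes the median was -0.04 and 52.6% had negative estimates. Only 1 member passed an adjusted p of 0.05 in limma, Egflam, which was lower. That is 1 of 33 members tested, beside 0.348% of all tested genes called in either direction and 0.0822% called lower. At an unadjusted p under 0.05, 11 matrix genes and 7 integrin genes were lower, or 18 of 33 members, beside 14.7% of all tested genes. No matrix gene and 1 integrin gene, Itgb4, were higher at that level, beside 12.8% of all tested genes. All 3 Gli2CA tumors lay below all 3 NTC tumors for 11 of the 17 matrix genes and 6 of the 16 integrin genes, beside 17.9% of all tested genes. The opposite order was seen for 1 member, Itgav, beside 15.9% of all tested genes.

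**Figure D1:**
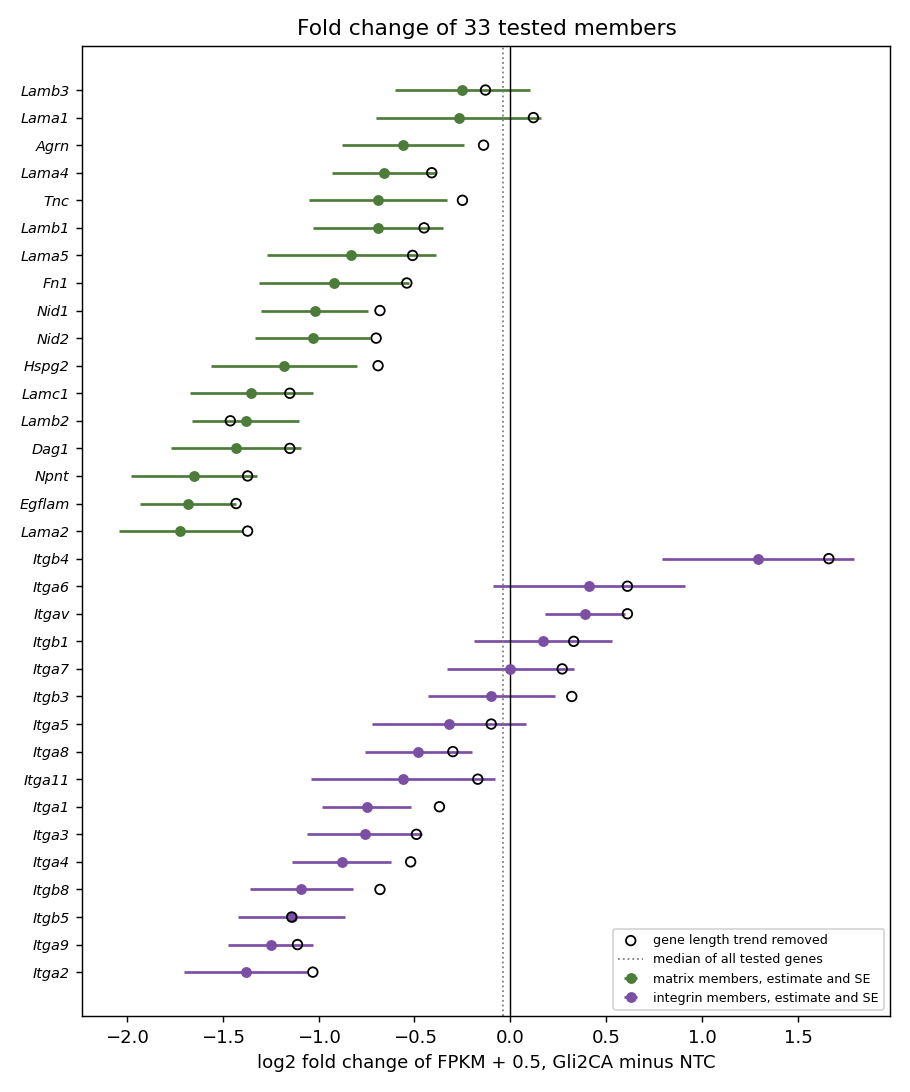
The log2 fold change (horizontal axis, Gli2CA minus NTC, of FPKM + 0.5) is shown for the 33 tested members, with matrix genes in green, integrin genes in purple and bars for the standard error. Open circles give the estimate with the gene length trend between libraries removed and the dotted line the median of all tested genes, -0.04. Before that trend is removed, all matrix estimates lie left of 0, while integrin estimates run from -1.38 for Itga2 to 1.29 for Itgb4. With the trend removed, Lama1 is at 0.12 and Itgb4 at 1.66.

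Gene length moved with the result. Members have long transcripts, with a median of 2924 bases against 1599 for all tested genes, and 24 of the 33 fall in the longest of 4 equal bins of length. Across all tested genes the median log2 fold change went from 0.38 in the shortest bin to 0.03, -0.16 and -0.34 in the longest, where 73.6% of genes had negative estimates. With this trend removed from each library, the matrix median was -0.68, the integrin median -0.24 and that of all tested genes -0.01. The source of the length trend was not tested.

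**Figure D2:**
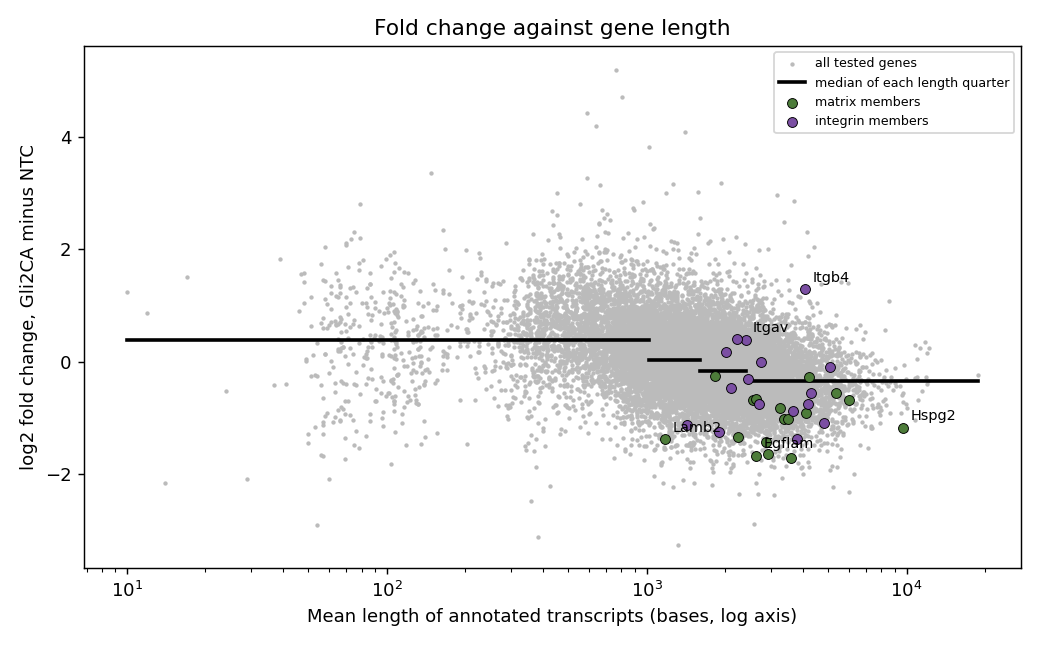
Each grey point is 1 of the tested genes, placed by the mean length of its annotated transcripts (horizontal log axis, bases) and its log2 fold change (vertical axis, Gli2CA minus NTC). Black bars are medians of the 4 length bins, from 0.38 to -0.34. Most matrix members (green) lie below the bar of their own bin, and integrin members (purple) lie on both sides of it.

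Scored by sample, matrix genes separated the groups and integrin genes did not. Set against the mean of the NTC tumors, the average log2 level of the tested matrix genes was 0.38, 0.10 and -0.48 for NTC replicates 1 to 3 and -0.83, -0.97 and -1.26 in Gli2CA replicates 1 to 3. For the integrin genes the same score was 0.22, 0.09 and -0.31 in NTC and -0.06, -0.81 and -0.34 in Gli2CA. NTC replicate 3 was the lowest NTC tumor in both scores. Gli2CA replicate 3 was lowest for matrix genes and Gli2CA replicate 2 for integrin genes. The matrix score of Gli2CA replicate 2 was close below its integrin score (-0.97 and -0.81). NTC replicate 3 had a similar gap (-0.48 and -0.31). The difference of the medians, matrix minus integrin, was -0.50 on the log2 scale, and no test was made of it because the members were chosen with earlier results known.

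**Figure D3:**
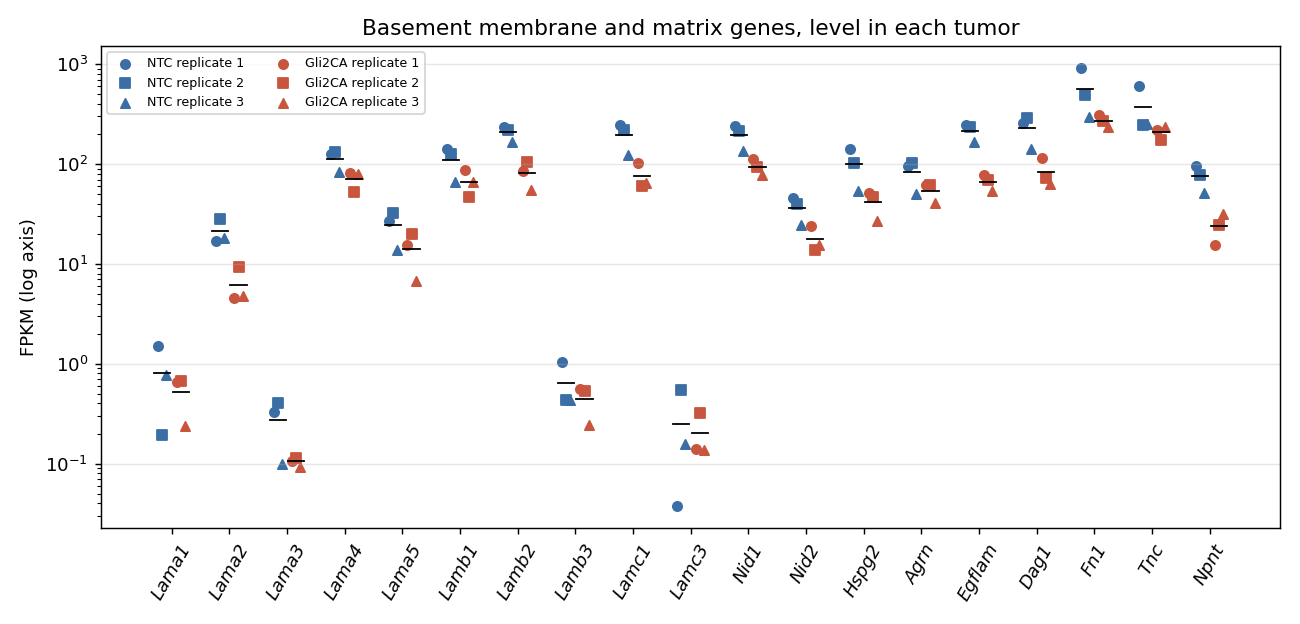
Levels of the 19 matrix genes in every tumor are plotted on a log axis in FPKM, NTC in blue and Gli2CA in red, with 1 marker shape per replicate number and a black bar for each group mean. Red points lie wholly below blue points for 11 of the genes, and Lama1, Lama3, Lamb3 and Lamc3 are near or below 1 FPKM throughout.

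Egflam encodes pikachurin, a secreted protein with laminin G-like domains that binds dystroglycan at the photoreceptor synapse. It fell in the tumors labelled Gli2CA (log2 fold change -1.68, SE 0.25, adjusted p = 0.0385 in limma), by 3.2-fold. The gene (ENSMUSG00000042961) lies on the minus strand of chromosome 15, from 7206120 to 7398395 in GENCODE M21 on GRCm38. It was measured at 244, 233 and 167 FPKM across NTC replicates 1 to 3, against 77.1, 68.7 and 54.1 FPKM across Gli2CA replicates 1 to 3, from 14333, 12997 and 7830 fragments against 3997, 2941 and 2879. The lowest NTC tumor was thus above the highest Gli2CA tumor by more than the range of either group. The call held with the length trend removed, at -1.43 (adjusted p = 0.0496), and in limma-voom on the recovered fragments (adjusted p = 0.044). It was lost without NTC replicate 1 (0.15), 2 (0.135) or 3 (0.0626), without Gli2CA replicate 1 (0.059) or 3 (0.185), and with no filter on low genes (0.179), and kept without Gli2CA replicate 2 (0.044).

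The promoter of Egflam is shown because it is the member that was called. The window covers 250 bases before to 50 after the annotated start, chr15:7398346-7398645 of GRCm38.p6, minus strand, from RefSeq. Matches to TGANTCA, a loose form of the motif of AP-1 factors that allows any base at N, are in capitals.
Egflam: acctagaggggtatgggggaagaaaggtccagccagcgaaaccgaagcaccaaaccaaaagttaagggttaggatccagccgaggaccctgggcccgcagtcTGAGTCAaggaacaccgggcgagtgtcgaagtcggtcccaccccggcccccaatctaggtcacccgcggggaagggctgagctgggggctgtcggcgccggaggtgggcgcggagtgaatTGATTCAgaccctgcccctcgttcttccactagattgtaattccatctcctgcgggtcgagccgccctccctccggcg
The matches begin at positions -148 and -28 from the start. RefSeq windows were at hand for 24 of the 35 members, 31 in all since a gene can have several starts, and a gene counts as holding a motif where any of its windows does. A second, overlapping Egflam window holds the same matches. Of the 24, 3 genes, Egflam, Itga3 and Itga9, held TGANTCA on either strand, beside 8.97% of the 27025 genes with a window. The Itga3 and Itga9 matches lie in windows of starts inside the gene, at chr11:95069149-95069448 and chr9:118711442-118711741. The Gli motif GACCACCCA was in none of the 24, beside 0.289% of all genes, and its core CCACCCA was in Agrn, Itga2 and Itga4, beside 10.6%. A further 9 motifs were searched on both strands. The TEAD motif GGAATG was found in 3 members, Itgb1, Lamb3 and Nid1 (16.6% of all genes). Its longer form GGAATGT, which overlaps it, was found in Lamb3 alone (4.47%). The Sp1 motif GGGCGG was found in 17 members (38.2%). The hypoxia motif ACGTG, which also lies within the E-box, was found in Dag1 and Itga9 (21.8%), and the E-box CACGTG in 0 members (8.09%). The TATA box TATAAA was found in Tnc (15.7%), the Ets motif CCGGAAG in Itga3 (9.93%), and the Sox motif ACAATGG (4.15%) and the NFI motif (0.0444%) in 0 members. TGANTCA was picked for display after the matches were seen.

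Dag1 encodes dystroglycan, the receptor that ties laminins, agrin, perlecan and pikachurin to the cell. Its levels were 256, 289 and 141 FPKM in the NTC tumors and 115, 72.7 and 62.9 FPKM in the Gli2CA tumors (log2 fold change -1.43, SE 0.34, adjusted p = 0.0708). The groups did not overlap, with NTC replicate 3 nearest to the Gli2CA tumors. The enzymes that add the matrix-binding sugar to dystroglycan and the dystrophin-associated proteins had estimates of both signs. Of these 21 genes 0 were called in limma, and the median log2 fold change was -0.10. At an unadjusted p under 0.05, 2 were lower and 1 was higher (9.52% and 4.76%), beside 14.7% and 12.8% of all tested genes. Utrn, which encodes utrophin, was the member of that list with the smallest p, at -1.13 (SE 0.31, adjusted p = 0.0881).

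Among laminin alpha chains the muscle and nerve form had the lowest estimate. Lama2, which encodes the alpha chain of laminin-211, was measured at 17, 28.4 and 18 FPKM in the NTC tumors and 4.6, 9.28 and 4.76 FPKM in the Gli2CA tumors (log2 fold change -1.72, SE 0.32, adjusted p = 0.0561). The groups did not overlap, and NTC replicate 2 was the highest of its group, as Gli2CA replicate 2 was of its own. Lama2 missed the threshold in limma and passed in limma-voom (adjusted p = 0.0499). Vessel laminins showed smaller differences. Lama4, the alpha chain of endothelial laminin-411, stood at 125, 132 and 82.9 FPKM in the NTC tumors and 81.5, 53 and 79.8 FPKM in the Gli2CA tumors (log2 fold change -0.66, SE 0.27, adjusted p = 0.162), with the groups separated by a narrow gap. Lama5, the chain of laminin-511, overlapped between the groups, at 27.2, 32.7 and 13.8 against 15.6, 19.7 and 6.71 FPKM (log2 fold change -0.83, SE 0.44), and its estimate was -0.39 without Gli2CA replicate 3.

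The embryonic and epithelial alpha chains were barely present. Lama1 was at 1.49, 0.192 and 0.766 FPKM (NTC) against 0.655, 0.675 and 0.236 FPKM (Gli2CA), and its estimate of -0.27 (SE 0.43) turned to 0.12 with the length trend removed. Without NTC replicate 1 or 2 or Gli2CA replicate 3 it was 0.10, -0.67 or -0.05. Lama3, the epithelial chain of laminin-332, was not tested, with 59, 68 and 14 fragments in NTC and 17, 15 and 15 in Gli2CA, or 0.329, 0.4 and 0.0981 against 0.107, 0.115 and 0.0923 FPKM. NTC replicate 3 lay within the Gli2CA range for Lama3.

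Of the beta and gamma chains, Lamb2 and Lamc1 had the lowest estimates. Lamb2, the beta chain of synaptic and kidney laminins, was measured at 234, 221 and 167 FPKM across NTC replicates 1 to 3, against 84.4, 104 and 54.5 FPKM across Gli2CA replicates 1 to 3 (log2 fold change -1.38, SE 0.28, adjusted p = 0.0642). Lamc1, the gamma chain of most laminin trimers, was measured at 244, 220.4 and 123 FPKM (NTC) against 102, 60.6 and 64.3 FPKM (Gli2CA) (log2 fold change -1.35, SE 0.32, adjusted p = 0.0724). Both were lower in all 3 Gli2CA tumors than in any NTC tumor. With the length trend removed Lamb2 was at -1.46 and Lamc1 at -1.15. The length used for Lamb2, the mean of its 7 annotated transcripts, was the shortest of the set at 1180 bases. That mean need not be the length of the transcript expressed in the tumors, so the Lamb2 correction depends on it. Lamb1, the beta chain paired with Lamc1 in the commonest trimers, had overlapping groups, with means of 110.3 ± 39.5 and 66.7 ± 20.2 FPKM (SD, n = 3 each) for NTC and Gli2CA, with an estimate of -0.69 (SE 0.34, adjusted p = 0.219). The epithelial chain Lamb3 stood at 1.05, 0.438 and 0.43 against 0.554, 0.537 and 0.243 FPKM (log2 fold change -0.25, SE 0.35, adjusted p = 0.668), and Lamc3, not tested, at 0.0373, 0.551 and 0.156 against 0.141, 0.324 and 0.137 FPKM, with 3 to 42 fragments per library. The Lamb3 estimate was -0.08 without Gli2CA replicate 3.

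The linkers of the sheet had negative estimates alike. Nid1, which encodes nidogen-1, the bridge between laminin gamma-1 and collagen IV, was at 239.6, 212 and 135 FPKM in the NTC tumors and 111, 94 and 77.7 FPKM in the Gli2CA tumors (log2 fold change -1.02, SE 0.28, adjusted p = 0.0847). Its relative Nid2 was at 45.5, 39.5 and 24.7 against 23.7, 13.8 and 15.3 FPKM (log2 fold change -1.03, SE 0.30, adjusted p = 0.0929), and for both the groups did not overlap. Hspg2, which encodes perlecan, the heparan sulfate proteoglycan of vessel walls, was at 142, 102 and 53.7 FPKM (NTC) against 51.1, 47.3 and 26.8 FPKM (Gli2CA) (log2 fold change -1.18, SE 0.38, adjusted p = 0.106). The gap for Hspg2 was narrow, between NTC replicate 3 and Gli2CA replicate 1. With the length trend removed its estimate was -0.69, and its transcripts are the longest of the set at a mean of 9728 bases. Agrn, the laminin-binding proteoglycan agrin, overlapped at 96.3, 102 and 50.3 against 61, 61.3 and 40.6 FPKM (-0.56, SE 0.32), and went to -0.14 in the same correction. Without NTC replicate 3 the Agrn estimate was -0.89 and without Gli2CA replicate 3 -0.37.

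Npnt, which encodes nephronectin, a basement membrane ligand of integrin alpha8 beta1, had the third lowest estimate of the matrix genes. It was measured at 96.6, 77.8 and 51.4 FPKM across NTC replicates 1 to 3, against 15.3, 24.4 and 31.7 FPKM across Gli2CA replicates 1 to 3 (log2 fold change -1.65, SE 0.33, adjusted p = 0.0622). Here Gli2CA replicate 1 was lowest, and the highest Gli2CA tumor was below the lowest NTC tumor. Fn1, which encodes fibronectin, the main provisional matrix protein, was at 919, 487 and 293 FPKM in the NTC tumors and 310.0, 269 and 233 FPKM in the Gli2CA tumors (log2 fold change -0.92, SE 0.39, adjusted p = 0.17). NTC replicate 1 was far above the other 2 NTC tumors, and NTC replicate 3 lay below Gli2CA replicate 1. Tnc, the de-adhesive glycoprotein tenascin-C, was also highest in NTC replicate 1, with 610.3, 248 and 250.4 against 220.4, 176 and 234 FPKM (log2 fold change -0.69, SE 0.36, adjusted p = 0.247). Without NTC replicate 1 the log2 fold change of Fn1 was -0.49 and that of Tnc -0.26.

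**Figure D4:**
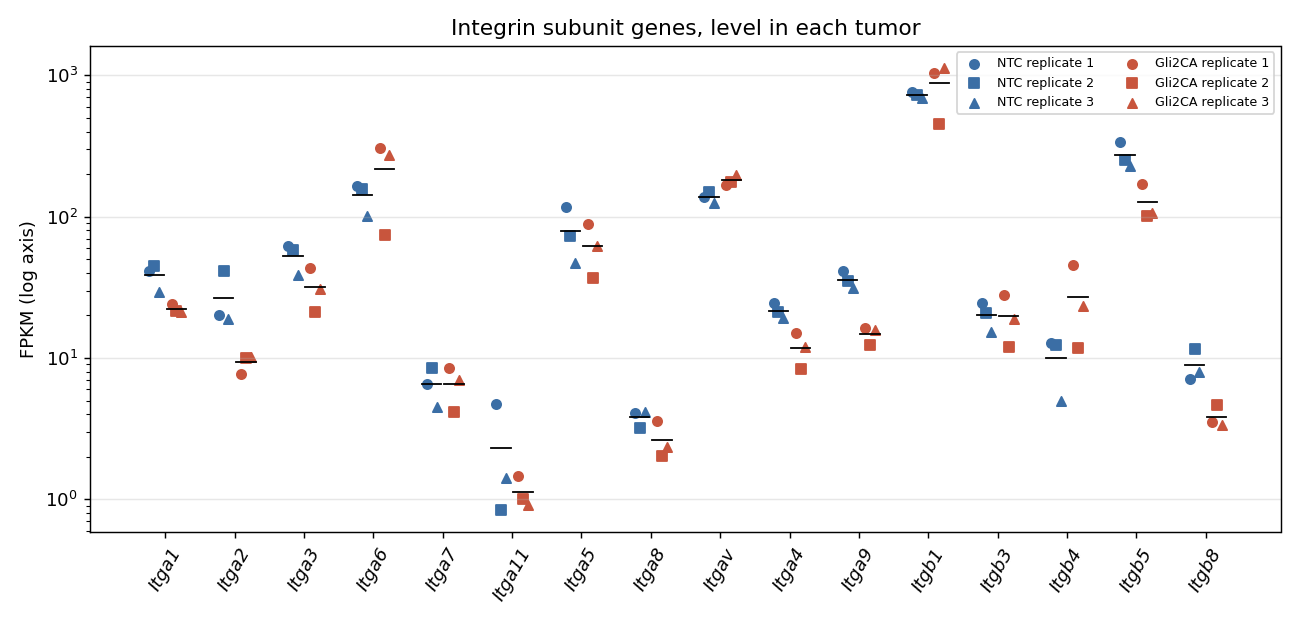
Levels of the 16 integrin genes in every tumor are plotted on a log axis in FPKM, with colors, shapes and bars as for the matrix genes. Red points lie wholly below blue points for Itga1, Itga2, Itga4, Itga9, Itgb5 and Itgb8 and wholly above them for Itgav, and Gli2CA replicate 2 (square) lies apart from the other red points for Itgb1 and Itga6.

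The integrins that bind collagen had negative estimates. Itga2, the alpha subunit of the collagen receptor alpha2 beta1, was at 20.1, 41.1 and 18.8 FPKM in the NTC tumors and 7.77, 10 and 10.1 FPKM in the Gli2CA tumors (log2 fold change -1.38, SE 0.32, adjusted p = 0.0691). The 3 Gli2CA tumors were close together and below every NTC tumor, of which replicate 2 was the highest. Itga1, another collagen receptor found on vessels and stroma, was at 41.2, 44.6 and 29.5 against 24.1, 21.6 and 21.3 FPKM (log2 fold change -0.75, SE 0.23, adjusted p = 0.0959), again without overlap. With the length trend removed Itga1 was at -0.37. Itga11, the collagen receptor of fibroblasts, was low, at 4.69, 0.837 and 1.42 against 1.47, 1 and 0.911 FPKM (-0.56, SE 0.48), and its estimate was 0.01 without NTC replicate 1 and -0.97 without NTC replicate 2.

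Estimates of the laminin receptors had either sign. Itga3, whose product binds laminin-332 and laminin-511, was at 61.8, 57.9 and 38.6 FPKM (NTC) against 43, 21.2 and 30.8 FPKM (Gli2CA) (log2 fold change -0.76, SE 0.30, adjusted p = 0.155), with Gli2CA replicate 1 above NTC replicate 3 and an estimate of -0.50 without Gli2CA replicate 2. Itga6, the laminin-binding partner of beta1 or beta4, was at 166, 158 and 101 FPKM in the NTC tumors and 304, 74.4 and 273 FPKM in the Gli2CA tumors (log2 fold change 0.41, SE 0.50, adjusted p = 0.616). Gli2CA replicates 1 and 3 were above every NTC tumor and replicate 2 below every one. The Itga6 estimate was 0.05, 1.06 and 0.12 without Gli2CA replicate 1, 2 or 3, and 0.18 without NTC replicate 3. Itga7, a laminin receptor of skeletal muscle, was at 6.54, 8.44 and 4.5 against 8.52, 4.16 and 6.99 FPKM, with an estimate of -0.00 (SE 0.33). It was lowest among NTC tumors in replicate 3, the library with the most muscle marker RNA.

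Itgb4, the beta subunit that joins laminin-332 to keratin filaments in hemidesmosomes, had the highest estimate of all members. It was measured at 12.8, 12.3 and 4.99 FPKM across NTC replicates 1 to 3, against 45.4, 11.8 and 23.5 FPKM across Gli2CA replicates 1 to 3 (log2 fold change 1.29, SE 0.50, adjusted p = 0.145). Gli2CA replicates 1 and 3 were above all NTC tumors, but Gli2CA replicate 2 lay among them, and the call was made in 0 of 20 alternatives. The Itgb4 estimate was 0.81 without Gli2CA replicate 1 and 1.76 without Gli2CA replicate 2. With the length trend removed the estimate was 1.66 (adjusted p = 0.0869). Lama3 and Lamb3, chains of the laminin that this integrin binds, stayed at the low levels given above.

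Epithelial markers went in both directions between the groups. Of 7 keratinocyte and epithelial markers 5 were tested and 0 called in limma, with a median log2 fold change of 0.99. At an unadjusted p under 0.05, 1 was lower and 2 were higher, beside 14.7% and 12.8% of all tested genes. The summed level of the 7 markers was 12.9 to 27.4 FPKM over the NTC tumors and 49.8 to 129.5 FPKM over the Gli2CA tumors. Pkp1 alone was 21.9 of the 27.4 FPKM in NTC replicate 1 and 105 of the 129.5 FPKM in Gli2CA replicate 1. Krt14, the basal keratin that hemidesmosomes anchor, was at 0.0318, 0.369 and 0.08 FPKM (NTC) against 16.9, 2.05 and 29.7 FPKM (Gli2CA), and Pkp1, a desmosomal plakophilin, at 21.9, 15 and 4.31 against 105, 24.3 and 39.9 FPKM. Krt5, the partner of Krt14 in basal keratinocytes, was at or below 0.0561 FPKM in every tumor. Dsp was at or below 0.145 FPKM and Epcam at or below 0.974 FPKM. Krt10 was at 3.79, 4.89 and 5.75 FPKM (NTC) against 6.18, 22.5 and 6.84 FPKM (Gli2CA). It was thus highest in Gli2CA replicate 2, where Krt14, Pkp1 and Itgb4 were lowest of that group. The Krt10 estimate was 0.99 (SE 0.45, adjusted p = 0.19 in limma). Cdh1 was lower in all 3 Gli2CA tumors at -1.06 (SE 0.33, adjusted p = 0.101 in limma). The part of epithelial cells in the Itgb4 values was not tested.

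**Figure D5:**
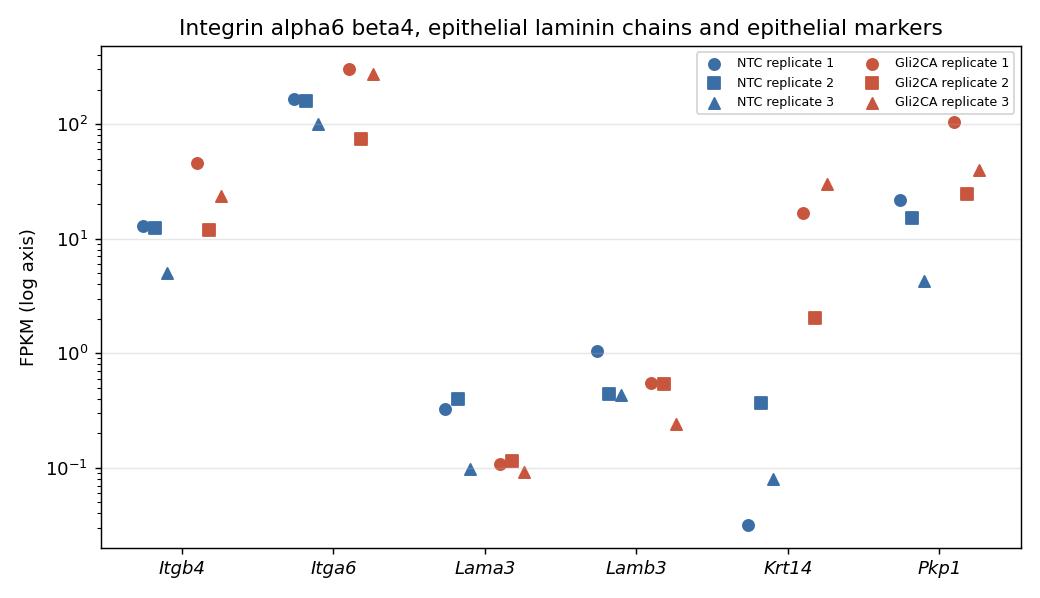
Levels of Itgb4, Itga6, the laminin-332 chain genes Lama3 and Lamb3, Krt14 and Pkp1 are plotted in FPKM on a log axis for each tumor. NTC is in blue and Gli2CA in red, with 1 marker shape per replicate number. Krt14 and Pkp1 are the 2 of 7 listed epithelial markers that were higher at an unadjusted p under 0.05 in limma. Gli2CA replicate 2 (red square) is the lowest of its group for Itgb4, Itga6, Krt14 and Pkp1, and Lama3 and Lamb3 stay near or below 1 FPKM in all 6 tumors. Krt10, a listed marker that is not plotted, was highest in Gli2CA replicate 2, at 22.5 FPKM.

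Receptors for the RGD motif of fibronectin, vitronectin and nephronectin had no called member in limma, with estimates from -0.48 to 0.39. Itgav, the alpha subunit of the alpha-v family, was the only member with all Gli2CA tumors above all NTC tumors, at 138, 150.1 and 125 FPKM in the NTC tumors and 169, 175 and 197 FPKM in the Gli2CA tumors (log2 fold change 0.39, SE 0.21, adjusted p = 0.251). Its separation was small, since Gli2CA replicate 1 exceeded NTC replicate 2 by less than the range within either group. Itga5, the alpha subunit of the fibronectin receptor, had overlapping groups, with means of 78.8 ± 35.1 and 62.5 ± 25.9 FPKM (SD, n = 3 each) for NTC and Gli2CA (log2 fold change -0.32, SE 0.40, adjusted p = 0.617). Its estimate was 0.01 without NTC replicate 1 or Gli2CA replicate 2, -0.64 without NTC replicate 3 and -0.62 without Gli2CA replicate 1. Itga8, which pairs with beta1 to bind nephronectin, was low, at 4.05, 3.22 and 4.16 against 3.58, 2.01 and 2.34 FPKM (log2 fold change -0.48, SE 0.28, adjusted p = 0.283).

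The partners of alpha-v differed among themselves. Itgb5, the vitronectin receptor subunit, was at 340.4, 254 and 229.8 FPKM in the NTC tumors and 171, 102 and 106 FPKM in the Gli2CA tumors (log2 fold change -1.14, SE 0.28, adjusted p = 0.0733), and Itgb8, which activates latent TGF-beta with alpha-v, at 7.08, 11.6 and 7.97 against 3.54, 4.65 and 3.36 FPKM (log2 fold change -1.09, SE 0.27, adjusted p = 0.0733). Neither pair of groups overlapped. Itgb3, a beta subunit of endothelial, platelet and melanoma cells, overlapped at 24.7, 20.8 and 15.4 against 28, 11.9 and 19 FPKM, and its estimate of -0.10 (SE 0.33) turned to 0.32 with the length trend removed. Without NTC replicate 1 or 3 or Gli2CA replicate 1 or 2 it was 0.05, -0.28, -0.39 or 0.21. Itgb1, the shared beta subunit of most matrix receptors, was at 758, 725 and 689.6 FPKM in the NTC tumors and 1047, 455 and 1127 FPKM in the Gli2CA tumors (log2 fold change 0.17, SE 0.36, adjusted p = 0.792). Here the 3 NTC tumors were close together while Gli2CA replicates 1 and 3 were above them and replicate 2 below them, and its sign turned with quantile scaling. Without Gli2CA replicate 1, 2 or 3 the Itgb1 estimate was -0.02, 0.59 or -0.07.

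Itga9 and Itga4, alpha subunits of a separate branch that bind tenascin-C, fibronectin splice forms and VCAM-1, were both lower in every Gli2CA tumor. Itga9 had the second smallest p of the 35, at 41.5, 35.1 and 31.2 FPKM in the NTC tumors and 16.4, 12.4 and 15.8 FPKM in the Gli2CA tumors (log2 fold change -1.25, SE 0.22, adjusted p = 0.0523). The groups stood apart by more than the range within either. Itga9 passed in limma-voom (adjusted p = 0.0499) and stood at -1.11 with the length trend removed (adjusted p = 0.054). Itga4, carried by leukocytes and neural crest derivatives, was at 24.5, 21 and 19.2 against 15.1, 8.3 and 12 FPKM (log2 fold change -0.88, SE 0.26, adjusted p = 0.0939). For Itga4 the length correction gave -0.52.

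Other genes of the basement membrane, from a list that holds none of the 35, had negative estimates for 19 of the 20 tested. Of 25 listed 20 were tested and 0 called in limma, and the median log2 fold change was -0.98, or -0.66 with the length trend removed. At an unadjusted p under 0.05, 12 were lower and 1 higher, beside 14.7% and 12.8% of all tested genes. Col4a2 and Col4a1, the chains of the common collagen IV, were lower in every Gli2CA tumor. Col4a2 was at 438, 404 and 221 FPKM in the NTC tumors and 119, 92 and 55.1 FPKM in the Gli2CA tumors (adjusted p = 0.0541), and Col4a1 had an estimate of -1.67 (SE 0.34, adjusted p = 0.0642). Col15a1, which encodes a vessel-associated collagen, stood at -1.61 (SE 0.30, adjusted p = 0.0541), and Frem1, which encodes a component of the skin basement membrane, at -1.46 (SE 0.31, adjusted p = 0.0658).

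Integrin subunits outside the set are mostly those of leukocytes. At an unadjusted p under 0.05, 14.7% of all tested genes were lower and 12.8% higher. Of 12 listed subunits 9 were tested and 0 called in limma, with 4 lower and 0 higher at that level. The median log2 fold change was -0.71, with Itgb7 at -1.50 (SE 0.30, adjusted p = 0.0636), Itgax at -1.05 (SE 0.27, adjusted p = 0.0812) and Itgb2, the common beta subunit of leukocyte integrins, at -1.24 (SE 0.33, adjusted p = 0.0827). Adaptors that couple integrins to actin gave 0 calls of 30 tested, 10 lower and 1 higher at that level, and a median of -0.53. Tln1, which encodes talin-1, the activator at the integrin beta tail, was at -1.15 (SE 0.33, adjusted p = 0.0889). Itgb1bp1, which encodes ICAP-1, an inhibitor that competes at the beta1 tail, was the 1 higher gene, at 35.5, 58.9 and 67.3 FPKM in the NTC tumors and 107, 185 and 146 FPKM in the Gli2CA tumors (log2 fold change 1.44, SE 0.31, adjusted p = 0.0658). Of 16 tested further integrin ligands 0 were called, with 7 lower and 2 higher at that level, and Icam1, a ligand of beta2 integrins, had the smallest p at -1.30 (SE 0.26, adjusted p = 0.0632).

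Marker lists of 6 host cell types had negative medians, from -1.11 to -0.01, while those of skeletal muscle and keratinocytes were positive, at 1.94 and 0.99. The counts below stand beside 14.7% of all tested genes lower and 12.8% higher at an unadjusted p under 0.05. Of 10 endothelial markers 0 were called in limma and 4 were lower and 1 higher at an unadjusted p under 0.05, with a median log2 fold change of -0.73 and a summed level of 203 to 289 FPKM over the NTC tumors and 167 to 205 FPKM over the Gli2CA tumors. For 7 mural cell markers 0 were called and 5 were lower, the median was -1.11 and the sum was 545 to 820.4 FPKM over the NTC tumors and 332 to 417 FPKM over the Gli2CA tumors. For 7 fibroblast markers 0 were called and 3 were lower, the median was -0.73 and the sum was 9799.9 to 31854 FPKM over the NTC tumors and 5256 to 8566 FPKM over the Gli2CA tumors, with NTC replicate 1, the tumor with the high Fn1 and Tnc values, at the top. The collagen genes Col1a1 and Col1a2 were 13018 and 8255 of the 31854 FPKM in that tumor. All Gli2CA tumors lay below all NTC tumors for 3 of the 7 fibroblast markers, beside 17.9% of all tested genes, and 1 marker had a positive estimate. Schwann cell markers gave 0 calls of 5, 1 lower at that level, and a median of -0.61, with summed levels of 288 to 524 FPKM over the NTC tumors and 208 to 433 FPKM over the Gli2CA tumors. Macrophage markers gave 0 calls of 5, 4 lower at that level, a median of -0.77 and summed levels of 367 to 475 FPKM over the NTC tumors and 219 to 319.9 FPKM over the Gli2CA tumors. General leukocyte markers gave 0 calls of 5 and a median of -0.01, close to the -0.04 of all tested genes. Of these 5 markers 1 was lower at that level, or 20%, beside 14.7% of all tested genes. Their sums were 1224 to 1891 FPKM over the NTC tumors and 931 to 1205 FPKM over the Gli2CA tumors. With the length trend removed the medians were -0.62 for endothelial, -0.77 for mural, -0.62 for fibroblast, -0.59 for Schwann cell, -0.94 for macrophage and -0.54 for general leukocyte markers. Those of keratinocyte, skeletal muscle and melanocyte markers were then 0.95, 1.95 and -0.39. No marker of the 6 lists was at 0 in all tumors, and limma-voom called 1 gene of all pathway and marker lists, Col4a2. The part of cell composition in the values of the 35 genes was not tested.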

How the data were processed

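RNA of 6 whole tumors, 3 per group, was sequenced from poly-T selected messenger RNA, per the labels' protocols. The authors deposited FPKM values for 54532 genes in 1 table. The aligner, counting tool, build and annotation were not given in the sources used here. Columns were matched to samples by name, and groups and replicate numbers come from the sample titles. Identifiers were joined to symbols, lengths and coordinates of GENCODE M21 (GRCm38), with a length for 54495 genes. FPKM times the mean length of a gene's transcripts gave whole fragments within 0.1 for at least 97% of low values, which returned the library totals.

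The test was limma 3.58.1 (eBayes with a variance trend, R 4.3.3) on log2(FPKM + 0.5), two-sided, for 15820 genes averaging 0.5 FPKM or more, with Benjamini-Hochberg adjustment over all of them at 0.05. Fold changes on this scale understate those of low genes. Alternatives changed the pseudocount, filter, scaling, weights, eBayes settings, gene set, length or GC trend, replicate block and samples, and limma-voom was run on recovered fragments. The scripts were tested on simulated data. Members, gene lists, tests and alternatives were chosen with earlier results of these data known. All 35 members could be named, and of other lists up to 4 genes with the smallest p. Itgb1bp1 falls under that rule, and Pkp1, Krt5, Krt10, Epcam, Dsp and the melanocyte genes were named as markers after their values were seen. The full genotype of the line and the 1 higher gene of the other basement membrane list are not reported here. Tables and plots used pandas 2.3.3 and matplotlib 3.10.9 under Python 3.11.15.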

Additional observations from a re-analysis of the deposited data

How the results depend on the processing

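All 20 alternatives were run. The matrix median stayed negative, from -1.28 to -0.68, and the integrin median from -0.69 without Gli2CA replicate 1 to -0.22 without NTC replicate 1. Egflam was the 1 called member, with 55 genes called in all. A filter at 1 FPKM gave 3 members and 145 genes, no filter 0 and 3, sample weights 11 and 1588, robust eBayes 2 and 101, rescaling on protein-coding genes 11 and 736, and limma-voom 3 and 100. Quantile scaling called 36 genes, Egflam among them. Called members were lower in every one of these fits. Over all genes the split of 42 higher and 13 lower became 3 and 0 with no filter, 76 and 69 with the filter at 1 FPKM, 53 and 28 with a pseudocount of 0.1, 704 and 884 with sample weights, 59 and 42 with robust eBayes, 51 and 49 with limma-voom, 35 and 9 with median-ratio scaling, 29 and 7 with quantile scaling and 106 and 630 with protein-coding genes rescaled, which moved the median of all genes from -0.04 to -0.29, the matrix median to -1.22 and the integrin median to -0.68. Without 1 library the calls ran from 0 to 2 members and from 4 to 119 genes. The 2 members, without Gli2CA replicate 2, were Egflam and Lama2.

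With the replicate number as a block, 15 members and 1928 genes were called. Whether the numbers pair the samples was not settled. Deviations of same-numbered tumors correlated at 0.353, 0.221 and 0.024, and those of differently numbered tumors at -0.285 to 0.078. NTC replicate 3 correlated more with Gli2CA replicate 2, at 0.078, than with Gli2CA replicate 3.

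Of 657 estimates of single members, 588 kept their direction and side of the threshold, 40 passed it newly, 6 lost it and 23 turned sign, in 6 genes. Itga7 went to 0.00 with a pseudocount of 1 and with limma-voom, 0.02 with median-ratio scaling, 0.08 with quantile scaling, 0.13 with sample weights, 0.27 with the length trend removed and 0.15 with the GC trend removed. Itgb1 went to -0.24 with quantile scaling and -0.04 with protein-coding genes rescaled. Itgb3 went to 0.08 with sample weights and 0.32 with the length trend removed, and Lama1 to 0.12 in the latter. Leaving out 1 library gave values from -0.22 to 0.27 for Itga7, -0.39 to 0.21 for Itgb3, -0.07 to 0.59 for Itgb1, -0.67 to 0.10 for Lama1, -0.97 to 0.01 for Itga11 and -0.64 to 0.01 for Itga5. The causes of these turns were not tested. With 3 samples a group, the spread between tumors limits what could be called.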
